A study of Mus musculus with 18 samples.

Results

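The 9 genes described here are a cytotoxic and natural killer (NK) group: the granule proteases Gzma, Gzmb and Gzmk, the pore-forming protein gene Prf1, the granule membrane protein gene Nkg7, the receptor genes Klrb1c, Klrd1 and Ncr1, and the transcription factor gene Eomes. They were taken as a list of names from the 55487 genes of the deposited tables and followed in all 18 libraries. The libraries hold poly(A) RNA of regulatory T (Treg) cells, which carry CD4 and Foxp3 and restrain immune responses. The cells were freshly sorted from peripheral blood (PB, called blood here), lung, liver, spleen, bone marrow and lymph node, with 3 libraries per organ. All groups were wild-type and had no treatment, and the series asks how circulating Treg cells differ from those in tissues. The labels state neither the sorting gates, nor sex, age, strain or the number of animals, nor whether replicate libraries came from separate animals, so p-values measure only the spread between these libraries, which may be technical.

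Killer lymphocytes store perforin, encoded by Prf1, and granzymes in secretory granules. Perforin opens the target cell membrane, and granzymes then cleave proteins inside the target. NK cells carry these granules together with receptors that read surface molecules of other cells, and Eomes is a T-box factor of the NK and effector CD8 T cell program. Activated Treg cells can also make granzyme B. The receptors encoded by Ncr1 and Klrb1c are in general used to identify NK cells rather than Treg cells.

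The genes are dispersed in the mouse genome (mm10, GENCODE M21). Gzma (ENSMUSG00000023132, chr13:113093825-113100981, minus strand) and Gzmk (ENSMUSG00000042385, chr13:113171608-113225908, minus strand) are neighbours on chromosome 13. Klrb1c (ENSMUSG00000030325, chr6:128778485-128789215, minus strand) and Klrd1 (ENSMUSG00000030165, chr6:129591782-129598775, plus strand) lie in the NK gene complex on chromosome 6. Gzmb (ENSMUSG00000015437) is at chr14:56258838-56262260 on the minus strand and Prf1 (ENSMUSG00000037202) at chr10:61297833-61304680 on the plus strand. Nkg7 (ENSMUSG00000004612) is at chr7:43437073-43438249, Ncr1 (ENSMUSG00000062524) at chr7:4337724-4345164 and Eomes (ENSMUSG00000032446) at chr9:118478212-118486132, all on the plus strand. Gzmk overlaps Esm1 on the other strand, Klrb1c overlaps Gm44511 on the same strand, and Eomes overlaps the antisense gene Gm33460. Reads in those overlaps could have been divided between the genes. Klrb1c also has near-identical Klrb1 relatives with which it can share reads, so its level is uncertain to that extent.

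The 250 bases upstream of the start were read for 8 of the 9 genes from RefSeq (GRCm38.p6), and Klrd1 was not in the table. These windows are shown because 6 of the 8 genes (Gzma, Gzmb, Prf1, Nkg7, Klrb1c and Ncr1) hold the RUNX core TGTGGT or its reverse complement ACCACA. Of all 32851 windows of that length, 14.0% hold it. Members were counted by gene and the share by window. For Ncr1, which has an alternative start, a match in either window counted. The 5 printed below are those of 4 genes whose highest organ was blood and of Gzmb, whose highest organ was lung. Each reads 5′ to 3′ on the gene's strand and ends at the base before the RefSeq start, with the RUNX core in capitals. For Klrb1c and Prf1 that start lies inside the GENCODE gene.
Gzma, chr13:113100982-113101231, minus strand: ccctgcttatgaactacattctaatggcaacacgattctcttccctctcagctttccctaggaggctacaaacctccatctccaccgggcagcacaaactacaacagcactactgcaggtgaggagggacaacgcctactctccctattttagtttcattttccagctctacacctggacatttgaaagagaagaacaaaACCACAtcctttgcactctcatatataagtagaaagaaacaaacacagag
Prf1, chr10:61297586-61297835, plus strand: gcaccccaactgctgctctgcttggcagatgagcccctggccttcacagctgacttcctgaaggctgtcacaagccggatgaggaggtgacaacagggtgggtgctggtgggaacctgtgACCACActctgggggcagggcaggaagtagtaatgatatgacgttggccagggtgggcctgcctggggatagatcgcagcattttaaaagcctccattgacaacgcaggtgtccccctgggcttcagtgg
Klrb1c, chr6:128788642-128788891, minus strand: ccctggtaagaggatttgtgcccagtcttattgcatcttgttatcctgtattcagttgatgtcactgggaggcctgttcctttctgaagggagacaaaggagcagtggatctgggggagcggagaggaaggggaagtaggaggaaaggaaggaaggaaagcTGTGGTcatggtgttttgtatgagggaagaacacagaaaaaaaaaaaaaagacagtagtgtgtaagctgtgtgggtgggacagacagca
Ncr1, chr7:4337474-4337723, plus strand: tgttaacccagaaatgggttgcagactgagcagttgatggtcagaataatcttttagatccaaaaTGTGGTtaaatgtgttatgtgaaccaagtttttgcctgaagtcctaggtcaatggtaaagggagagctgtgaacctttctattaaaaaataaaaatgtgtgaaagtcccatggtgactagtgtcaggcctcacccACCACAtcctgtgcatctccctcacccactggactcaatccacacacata
Gzmb, chr14:56262335-56262584, minus strand: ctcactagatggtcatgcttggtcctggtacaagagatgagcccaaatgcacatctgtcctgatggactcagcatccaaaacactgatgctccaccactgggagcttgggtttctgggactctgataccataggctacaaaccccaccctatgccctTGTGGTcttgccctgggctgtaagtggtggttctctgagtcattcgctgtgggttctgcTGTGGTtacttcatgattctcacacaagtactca

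Counted from the start, the core begins at base -50 in Gzma, -130 in Prf1, -89 in Klrb1c, -185 and -50 in Ncr1, and -93 and -34 in Gzmb. The match was thus present in genes high in blood and in Gzmb, whose levels followed another order of organs. In all, 7 motifs were searched on both strands, chosen with these sequences in view. The T-box core GTGTGA was found for 4 of the 8 genes (Gzmb, Gzmk, Nkg7 and Ncr1) against 12.3% of all windows. Its shifted form GGTGTG, which overlaps it, was found for 2 (16.3%). The longer GGTGTGA, which contains both, was in 2 (3.3%). The ETS core GGAAGT was found for 3 genes (19.7% of windows), the overlapping AGGAAG for 3 (29.5%), and the TCF core CTTTGA for 1 (13.8%). A match describes letters only, and says nothing of binding.

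Levels are given as deposited, in TPM (transcript abundance per length, scaled to the same total in every library), which is a share of a library's RNA. In bulk samples, fewer cells of a type and less RNA per cell cannot be told apart. From the steps between low values, 3 reads of a 1 kb transcript were worth 0.237 to 0.263 TPM in blood, 0.244 to 0.289 in lymph node, 0.342 to 0.351 in bone marrow, 0.453 to 0.499 in spleen, 0.683 to 0.729 in lung and 1.04 to 1.27 in liver. Low members were therefore measured least precisely in liver. None of the 7 Treg markers (Foxp3, Il2ra, Ctla4, Ikzf2, Cd4, Cd3e and Tnfrsf18) was at 0 throughout an organ, and their summed level was 897 to 915 TPM in blood and 1585 to 3263 TPM in the libraries of the other organs.

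For 6 of the 9 genes, Gzma, Prf1, Klrb1c, Klrd1, Ncr1 and Eomes, the 3 blood Treg libraries lay above all 15 others. They did so for 10.1% of the 16694 tested genes. Gzmb had its highest level in lung, where the 3 libraries lay above all 15 others (6.24% of tested genes did so in lung). Nkg7 was spread over all 6 organs, with its highest mean in blood (89.1 TPM), where it overlapped liver (66.9 TPM). Gzmk was near the detection limit in each organ. A moderated linear model (limma) on log2(TPM + 1) found a difference among the 6 organs at an adjusted p under 0.05 for 8 of the 9, all but Gzmk, against 68% of tested genes.

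**Figure D1:**
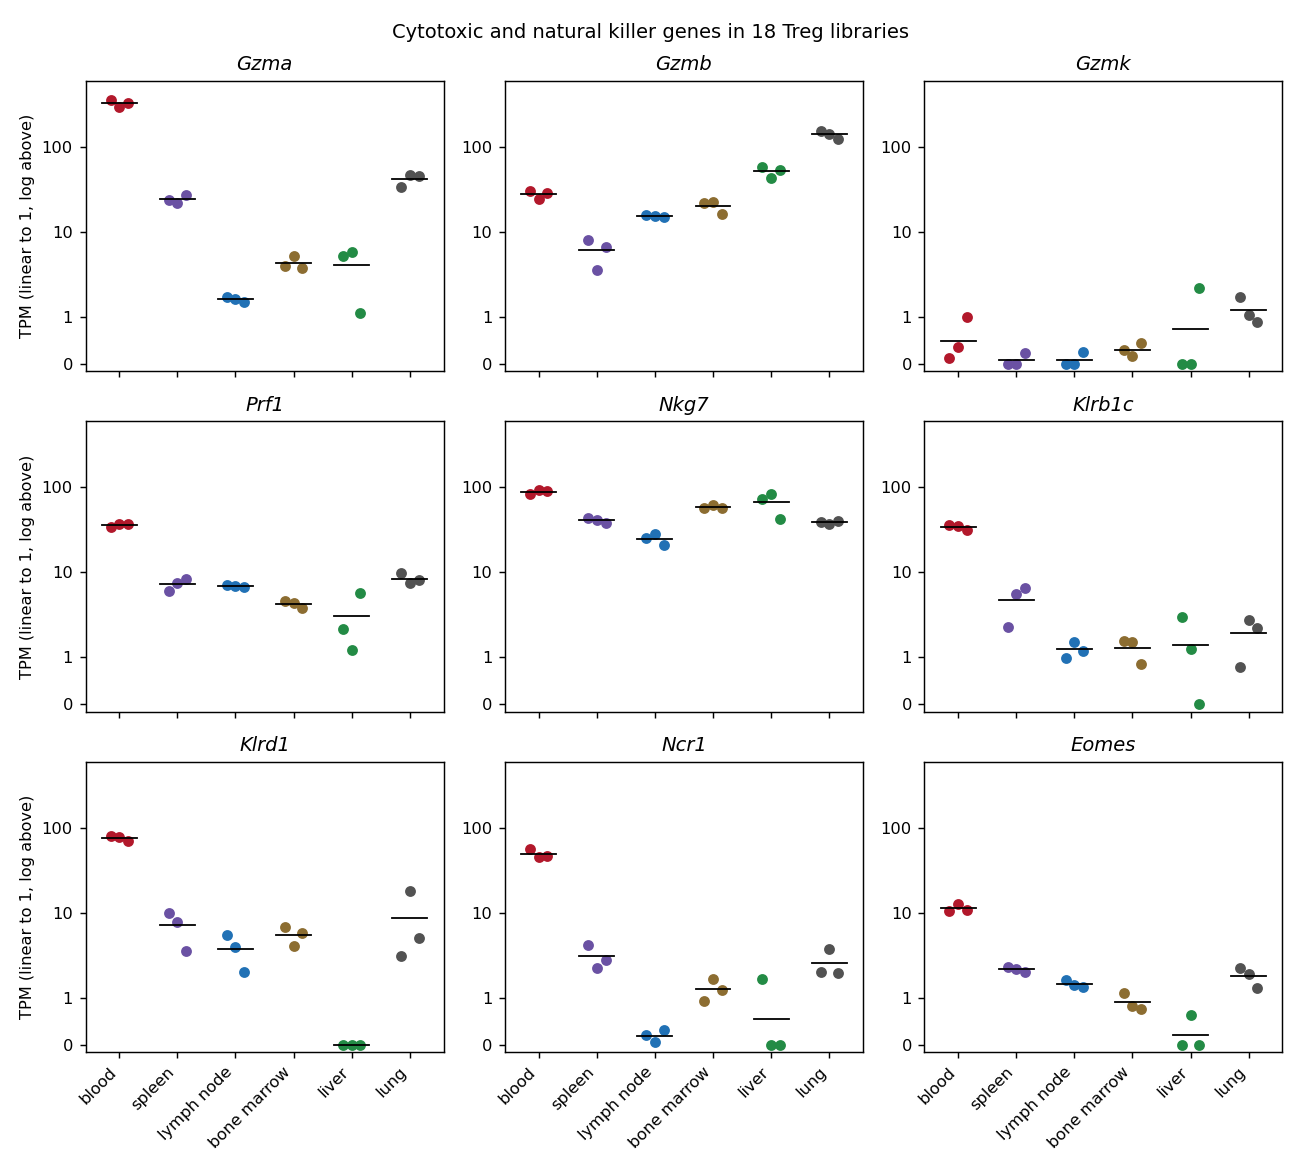
TPM of each of the 9 genes (panels; vertical axis linear to 1 TPM and logarithmic above) in the 3 libraries of each organ (points), with the mean as a bar. The blood points stand above all others for Gzma, Prf1, Klrb1c, Klrd1, Ncr1 and Eomes, and the lung points for Gzmb.

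Gzma, which encodes granzyme A, had the highest level of the group. It was at 357.6, 299 and 331 TPM in the 3 blood libraries. The lung libraries held 34.1, 47.1 and 45.5 TPM and the spleen libraries 24.0, 22.1 and 27.1. Bone marrow held 3.93, 5.26 and 3.8 TPM, liver 5.24, 5.77 and 1.12, and lymph node 1.71, 1.63 and 1.51. Blood was thus far above lung and spleen, which were above the other 3 organs, and the last 3 overlapped only through liver. On the log2(TPM + 1) scale, which understates the change of low genes, blood exceeded lung by 2.94 (SE 0.31, n = 3 and 3, limma adjusted p = 1.23e-06) and lymph node by 6.98 (SE 0.31, adjusted p = 5.39e-11). Spleen exceeded bone marrow by 2.26 (adjusted p = 5.03e-05). The step from lung to spleen was not called (0.76, adjusted p = 0.0667), although their libraries did not overlap, and it was called without liver replicate 2 (0.0409) or 3 (0.000628).

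Gzmb, which encodes granzyme B, followed another order of organs. It was at 155, 144 and 124 TPM in lung and at 58.0, 43.3 and 53.6 TPM in liver. The blood libraries held 30.7, 24.4 and 28.9 TPM and the bone marrow libraries 22.1, 22.8 and 16.4. Lymph node held 15.8, 15.5 and 14.9 TPM, and spleen 8.10, 3.59 and 6.61. No neighbouring organs in this order overlapped, but blood and bone marrow (adjusted p = 0.125) and bone marrow and lymph node (adjusted p = 0.252) did not differ beyond the threshold. Without spleen replicate 2, which enters the shared variance, the adjusted p for blood and bone marrow was 0.035. It was 0.0305 with median-ratio scaling, 0.00313 with scaling to 20 T cell genes, 0.0128 with array weights and 0.0324 with these 2 organs alone. For bone marrow and lymph node it was 0.00121 with T cell scaling and 0.0223 with array weights. Both calls thus depended on the setting. Blood was lower than lung by 2.29 (log2 difference -2.29, SE 0.21, adjusted p = 1.88e-07) and higher than spleen by 2.08 (adjusted p = 7.74e-07). Lung exceeded liver (liver minus lung -1.44, adjusted p = 5.92e-05). Against liver, blood was lower as deposited (-0.86, adjusted p = 0.00357), and this difference was lost when libraries were scaled to 20 T cell genes (0.03, adjusted p = 0.928).

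Gzmk, which encodes granzyme K, was at 1.71, 1.04 and 0.90 TPM in lung and reached the limit for testing, a mean of 1 TPM, in that organ alone. Blood held 0.12, 0.36 and 1.00 TPM and bone marrow 0.29, 0.17 and 0.44. One library each of spleen (0.23), lymph node (0.25) and liver (2.21) was above 0 and the other 2 of each were listed at 0. The organs thus overlapped widely, and the F test across organs gave an adjusted p of 0.154. Lung passed the threshold against spleen (adjusted p = 0.0369) and lymph node (adjusted p = 0.0371), but not when the second lung library (adjusted p = 0.0589 and 0.059) or any 1 spleen (0.0512 to 0.0908) or lymph node library (0.0529 to 0.0973) was left out. No fold is given, since these levels are close to what 3 reads of a 1 kb transcript are worth.

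Prf1 was at 34.3, 37.4 and 37.3 TPM in blood. Lung held 9.75, 7.44 and 8.08 TPM, spleen 5.98, 7.59 and 8.32, and lymph node 7.14, 6.95 and 6.80. The bone marrow libraries held 4.61, 4.30 and 3.81 TPM and the liver libraries 2.17, 1.21 and 5.79. Blood stood alone, while no neighbouring pair among the other 5 organs differed beyond the threshold. Blood exceeded lung by 1.99 (SE 0.29, adjusted p = 3.31e-05) and liver by 3.36 (SE 0.29). Between organs farther apart in the order, lung exceeded liver (liver minus lung -1.37, adjusted p = 0.00161).

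Nkg7, needed for the release of cytotoxic granules, varied least among the abundant members. It was at 84.1, 93.4 and 89.9 TPM in blood, 73.6, 84.6 and 42.5 in liver, and 58.1, 61.6 and 57.5 in bone marrow. Spleen held 43.8, 41.9 and 38.6 TPM, lung 39.2, 37.1 and 40.7, and lymph node 25.2, 28.2 and 20.9. The second liver library lay within the blood range, and the third lay far below it. Blood exceeded lymph node by 1.82, lung by 1.17 and spleen by 1.09 (SE 0.18 each). The call against bone marrow (0.59, adjusted p = 0.0215) was lost without bone marrow replicate 1 (0.0598) or 3 (0.0632), or without blood replicate 2 (0.0678) or 3 (0.0588). Against liver the difference of 0.46 was not called (adjusted p = 0.0538), it was called without liver replicate 1 (0.56, 0.0371) or 2 (0.66, 0.00672), and it was 0.17 (0.251) without liver replicate 3. Lymph node, the lowest organ, was below lung (-0.65, adjusted p = 0.00916), though without lymph node replicate 3 the adjusted p was 0.0502.

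The 3 receptor genes shared a single high organ. Ncr1, which encodes the activating receptor NKp46, was at 56.3, 45.8 and 46.3 TPM in blood. Spleen held 4.14, 2.26 and 2.80 TPM, lung 2.02, 3.71 and 1.95, and bone marrow 0.94, 1.66 and 1.24. Liver held 1.67, 0 and 0 TPM and lymph node 0.21, 0.07 and 0.31, close to or under the worth of 3 reads of a 1 kb transcript. Every blood library was thus far above the highest of the other 15. Blood exceeded spleen by 3.65 (SE 0.34, adjusted p = 3.44e-07) and bone marrow by 4.47. Among the other organs, spleen (1.74, adjusted p = 0.00236) and lung (lymph node minus lung -1.54, adjusted p = 0.00163) exceeded lymph node, while spleen and lung overlapped (adjusted p = 0.692).

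Klrb1c encodes the NK1.1 receptor. It was at 35.8, 35.0 and 31.5 TPM in blood and at 2.28, 5.49 and 6.54 TPM in spleen. Lung held 0.79, 2.78 and 2.22 TPM, liver 2.97, 1.24 and 0, bone marrow 1.54, 1.51 and 0.86, and lymph node 0.99, 1.52 and 1.2. Below blood, all neighbouring organs overlapped and none differed from the next beyond the threshold. Blood exceeded spleen by 2.69 (SE 0.43, adjusted p = 0.000116) and liver by 4.08 (SE 0.43).

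Klrd1 encodes CD94, the partner of the NKG2 receptor chains. It was at 79.5, 78.4 and 70.9 TPM in blood. Lung held 3.10, 17.8 and 4.99 TPM, spleen 9.97, 7.78 and 3.59, bone marrow 6.71, 4.07 and 5.74, and lymph node 5.42, 3.94 and 2.02. In liver it was listed at 0 in all 3 libraries, so no fold is given there. The second lung library was the highest outside blood, and it was still far below every blood library. Blood exceeded lung by 3.32 (SE 0.45, adjusted p = 1.85e-05) and lymph node by 4.08 (SE 0.45). Lung, spleen, bone marrow and lymph node overlapped, and no neighbours among them differed beyond the threshold.

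Eomes was the lowest of the genes that were high in blood, at 10.6, 12.7 and 10.8 TPM. Spleen held 2.27, 2.19 and 2.02 TPM, lung 2.24, 1.91 and 1.31, and lymph node 1.60, 1.41 and 1.34. Bone marrow held 1.14, 0.82 and 0.77 TPM and liver 0, 0.63 and 0. Blood exceeded spleen by 1.96 (SE 0.22, adjusted p = 3.49e-06) and liver by 3.38 (SE 0.22). Spleen and lung overlapped (adjusted p = 0.577), and all liver libraries lay below the worth of 3 reads of a 1 kb transcript. The worth for the length of Eomes was not estimated.

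Comparison by comparison, blood exceeded spleen in 8 of the 9 genes, where 20.1% of tested genes were higher, and none was lower (15.3% of tested genes were). The count was also 8 against lymph node (16.4%), with none lower (21%). Against bone marrow 7 were higher (13%) and none lower (18.8%). Against liver 6 were higher (23.3%) and 1, Gzmb, was lower (16.1%), and against lung 7 were higher (26.4%) and Gzmb was again lower (17.3%). The median difference over the 9 genes was 2.18 against spleen, 2.33 against lymph node, 2.84 against bone marrow and 2.14 against lung, where the medians over all tested genes were 0, -0.15, -0.11 and 0.12. Against liver it was 3.38, or 3.37 without Klrd1, beside 0.07 over all tested genes. These 5 comparisons share the blood libraries.

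**Figure D2:**
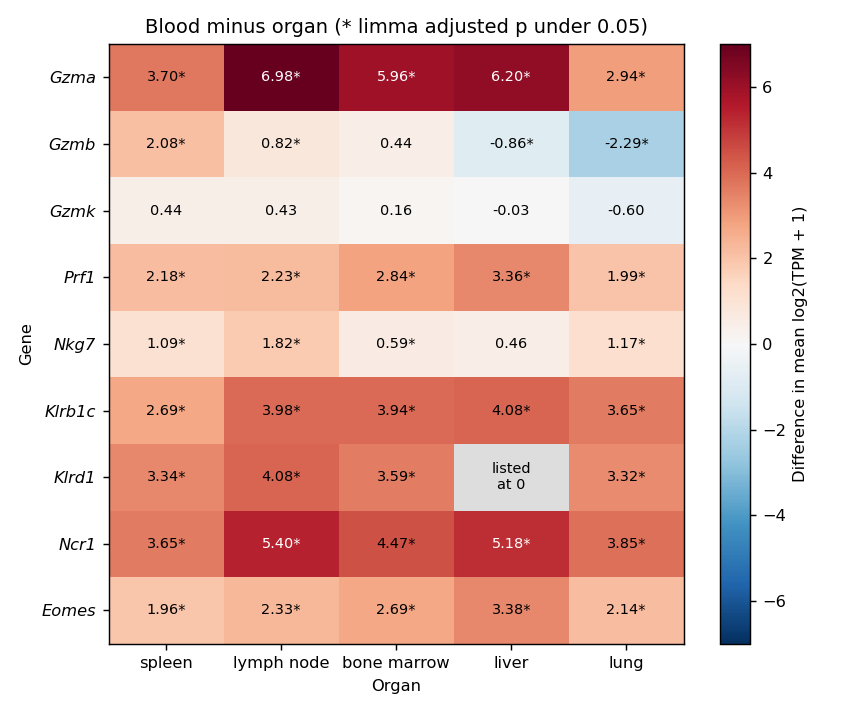
Difference in mean log2(TPM + 1) between blood and each of 5 organs (columns) for each gene (rows), with red for higher in blood, blue for lower, an asterisk for an adjusted p under 0.05 and grey where the organ is listed at 0. The row of Gzma runs from 2.94 to 6.98, and Gzmb changes sign between spleen (2.08) and lung (-2.29).

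Scaling each library to 20 T cell genes raised the median difference over all tested genes by 0.36 (bone marrow) to 0.87 (lymph node), and the share of all calls that were higher in blood from between 41% and 60.5% to between 77.1% and 96.6%. Under that scaling 8 of the 9 genes were higher against spleen, lymph node and bone marrow. Against liver 7 were higher with none lower, and against lung 7 with Gzmb lower. Over all genes, those higher in blood rose from 3362 to 9116 against spleen, 2745 to 9491 against lymph node and 2176 to 4946 against bone marrow. They rose from 3887 to 10402 against liver and from 4415 to 9322 against lung. These member counts therefore stand beside a shift of all genes. Median-ratio scaling moved the share of all calls that were higher from 43.9% to 64.5% against lymph node and from 41% to 59.4% against bone marrow. It gave 8 members higher in each of these and none lower, where 3472 and 2974 of all genes were higher and 1911 and 2030 lower. Removing abundant RNA classes moved the share against spleen from 56.9% to 46.6%, with 8 members higher and none lower. Of all genes, 2872 were then higher and 3292 lower.

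Without blood, the other 5 organs differed less in these genes. Over their 10 pairs 44 of 90 tests were called, and 12 of these calls were lost when some single library was left out. Spleen and lymph node differed in 4 of the 9 genes (14.3% of tested genes differed), spleen and bone marrow also in 4 (24.1%), and lymph node and bone marrow in 2 (22.5%). Of the last pair, the call of Gzma was lost whichever of its 6 libraries was left out (adjusted p = 0.0501 to 0.108). Between spleen and bone marrow the calls of Klrb1c (up to 0.166) and Eomes (up to 0.0868) were lost without some single libraries. Lung differed from spleen in 2 (40.8%), from lymph node in 5 (42.3%) and from bone marrow in 4 (43.5%). The calls of Gzmk, tested through lung alone, were lost against spleen (limma adjusted p up to 0.0908) and lymph node (0.0973) without some single libraries. So were those of Nkg7 against lymph node (0.0502) and of Prf1 (0.0835) and Nkg7 (0.0508) against bone marrow. The same held for Nkg7 between spleen and lymph node (0.0704) and Eomes between bone marrow and liver (0.0941). Liver differed from spleen in 8 (31.3%), from lymph node in 5 (31.1%), from bone marrow in 3 (34.5%) and from lung in 7 (34.9%). In the liver and spleen comparison 6 genes were higher in spleen (17.3%), while Gzmb and Nkg7 were higher in liver (14%). The calls of Nkg7 (adjusted p up to 0.0752) and of Klrb1c, higher in spleen (up to 0.0973), were lost without some single libraries.

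The make-up of the group within a library also differed between organs, and such ratios do not depend on the scaling. Gzma took 50.3% of the summed 654 TPM of the 9 genes in blood. By organ means, Nkg7 took the largest share in bone marrow (60.7%), liver (52.1%), lymph node (44.6%) and spleen (43.0%), and Gzmb in lung (57.1% of 246.9 TPM). In the third liver library Gzmb (53.6 TPM) exceeded Nkg7 (42.5 TPM). The ratio of Gzma to Gzmb was 11.5 to 12.3 in the blood libraries and 2.96 to 6.16 in spleen, but 0.22 to 0.367 in lung, 0.178 to 0.231 in bone marrow, 0.101 to 0.108 in lymph node and 0.021 to 0.133 in liver. Granzyme A transcripts thus exceeded granzyme B transcripts in blood and spleen and were fewer in the other 4 organs, in every library. The ratio of Prf1 to Gzmb was 1.12 to 1.54 in blood, within the spleen range of 0.738 to 2.11. It was 0.45 to 0.457 in lymph node, 0.189 to 0.232 in bone marrow, 0.052 to 0.065 in lung and 0.028 to 0.108 in liver, so below blood the organs stood in another order than for Gzma over Gzmb. Nkg7 exceeded Prf1 in every library, by 2.41 to 2.49 times in blood, 12.6 to 15.1 times in bone marrow and 7.34 to 69.9 times in liver, where Prf1 was low and variable.

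**Figure D3:**
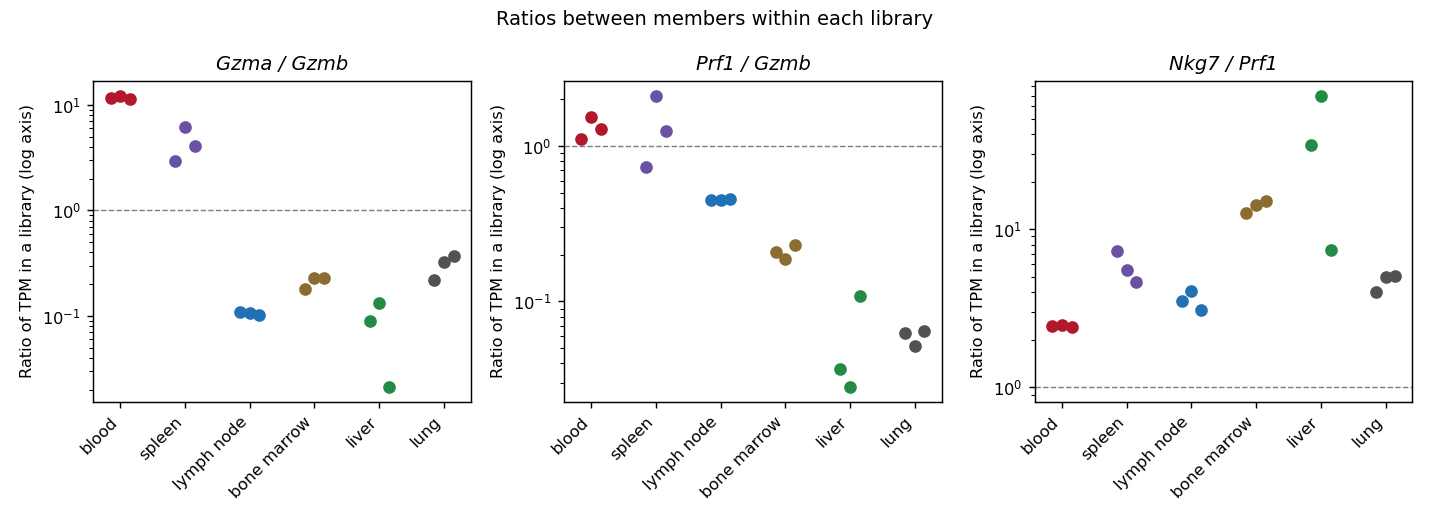
Ratio of TPM between 2 genes within each library (log axis), for Gzma over Gzmb, Prf1 over Gzmb and Nkg7 over Prf1, with 3 libraries per organ and a dashed line at 1. Gzma over Gzmb lies between 11.5 and 12.3 in blood and at or below 0.367 in lung, bone marrow, lymph node and liver.

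Set against Ncr1 in the same organ, Gzma had similar ratios of means in blood (6.66) and spleen (7.96). Its ratio was higher in lung (16.5) and lower in bone marrow (3.38). Gzmb was at 55.1 times Ncr1 in lung, 16.0 in bone marrow and 1.99 in spleen, but 0.566 in blood. Nkg7 was at 46.1 times Ncr1 in bone marrow, 15.2 in lung, 13.5 in spleen and 1.80 in blood. Levels of Gzmb and Nkg7 relative to Ncr1 were thus lowest in blood among these 4 organs. The same held for Prf1 (0.735 in blood), Klrb1c (0.69), Klrd1 (1.54), Eomes (0.229) and the sparse Gzmk (0.01). Only Gzma departed from this, and Ncr1, the divisor, was itself highest in blood.

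Genes whose pattern over the 18 libraries was most like that of a member were found by Pearson's r of log2(TPM + 1). This is a description only, since libraries of 1 organ share their source, and r is also given over the 15 libraries without blood for some genes. Gzma was most like Cma1 (r = 0.965), Klrb1b (0.95) and Klra4 (0.942), and these were at 0.91, 0.856 and 0.871 without blood. Ncr1 was most like Klri2 (0.961), Klra4 (0.957) and Itgb5 (0.956), which fell to 0.725, 0.726 and 0.69 without blood. Klrb1c was most like Ncr1 (0.939), Ifi205 (0.929) and C4b (0.926), at 0.644, 0.538 and 0.482 without blood. Among the genes most like Klrd1 were Arhgap24 (0.935) and Atox1 (0.931), and among those most like Prf1 were Rnf149 (0.946) and Ctss (0.943). Eomes was most like Ctss (0.98), Slc24a3 (0.936) and Klrc2 (0.934), at 0.931, 0.79 and 0.647 without blood. The genes most like Gzmb were of another kind, Neurl3 and Fam117b (0.955 each) and Sirt1 (0.954), and they stayed at 0.956, 0.966 and 0.956 without blood. Nkg7 was most like Rsad2 (0.971), an interferon-induced gene, Hip1 (0.934) and Rap1gap2 (0.916). For the sparse Gzmk the 3 were Zfp868 (0.84), Fam76a (0.806) and Fasl (0.8).

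The other genes of killing by granules and death ligands, 21 in the list, moved in both directions. Gzmd, Gzme, Gzmf, Gzmg and Gzmn were too low to test. Of the 16 tested, 8 were higher and 1 lower in blood against spleen, 7 and 3 against lymph node, 8 and 5 against bone marrow, 7 and 4 against liver, and 8 and 5 against lung. Of all tested genes, 20.1% were higher and 15.3% lower against spleen, 16.4% and 21% against lymph node, and 13% and 18.8% against bone marrow. Against liver these shares were 23.3% and 16.1%, and against lung 26.4% and 17.3%. The list's median differences were 0.44, 0.57, 0.58, -0.01 and 0.29, beside 0, -0.15, -0.11, 0.07 and 0.12 over all tested genes. Lyst, a regulator of granule size, was at 42.2 TPM in blood and 8.05 in spleen (2.28, SE 0.15, adjusted p = 4.62e-09). Stx11, which acts in granule fusion, was higher in blood than in spleen by 1.5, and Ctsc, the protease that activates granzymes, by 1.49. The interferon gamma gene Ifng went the other way, at 6.08 TPM in blood against 77.2 in liver (-3.52, SE 0.31, adjusted p = 1.69e-07) and 25.3 in bone marrow (-1.94). In lung, the granzyme gene Gzmc (8.75 TPM against 0.737 in blood, -2.45, adjusted p = 0.000202) and Serpinb6b, a protease inhibitor gene (83.5 against 21.1 TPM, -1.94), were higher than in blood. Gzmc shares reads with the similar Gzmd to Gzmg genes, so its level is uncertain.

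The other NK receptor and adaptor genes were mostly higher in blood. Of the 28, all tested, 21 were higher and 4 lower in blood against spleen, 22 and 4 against lymph node, 19 and 3 against bone marrow, 20 and 5 against liver, and 22 and 3 against lung. The shares and medians over all tested genes are given with the granule genes above. In 20 of the 28 the blood libraries lay above all 15 others, beside the 10.1% of tested genes given above. Median differences were 2.77, 3.32, 1.81, 2.80 and 2.51, and without the genes listed at 0 in the organ 2.77 against spleen, 3.18 against lymph node, 2.79 against liver and 2.51 against lung. Klra8, which encodes the activating receptor Ly49H, was at 45.5 TPM in blood and 0.323 in bone marrow (5.14, adjusted p = 1.38e-06). Klrk1, which encodes NKG2D, was at 71.2 TPM in blood and 2.83 in bone marrow (4.24, adjusted p = 0.000145), and Cd244a was at 37.5 TPM in blood and 0.943 in lung (4.34). Tyrobp, the DAP12 adaptor also made by myeloid cells, was at 1474 TPM in blood, 3.04 in lymph node and 414.7 in bone marrow. Klra genes are near-identical copies, and their separate values are uncertain. Klrg1, an inhibitory receptor gene of effector Treg cells as well as NK cells, was lower in blood (16.2 TPM) than in liver (93.1, -2.45), bone marrow (88.4, -2.38) and lung (76.6, -2.17). Its difference from lymph node (-0.43, adjusted p = 0.0269) turned to 0.62 with scaling to T cell genes, and its difference from spleen (-0.92) was then -0.09 (adjusted p = 0.63). Without lymph node replicate 1 or 2 or blood replicate 2 or 3, its adjusted p against lymph node was 0.0823, 0.0804, 0.0675 and 0.0862. The IL-18 receptor gene Il18r1 was also lower, at 40.5 TPM in blood against 177 in lung (-2.10).

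**Figure D4:**
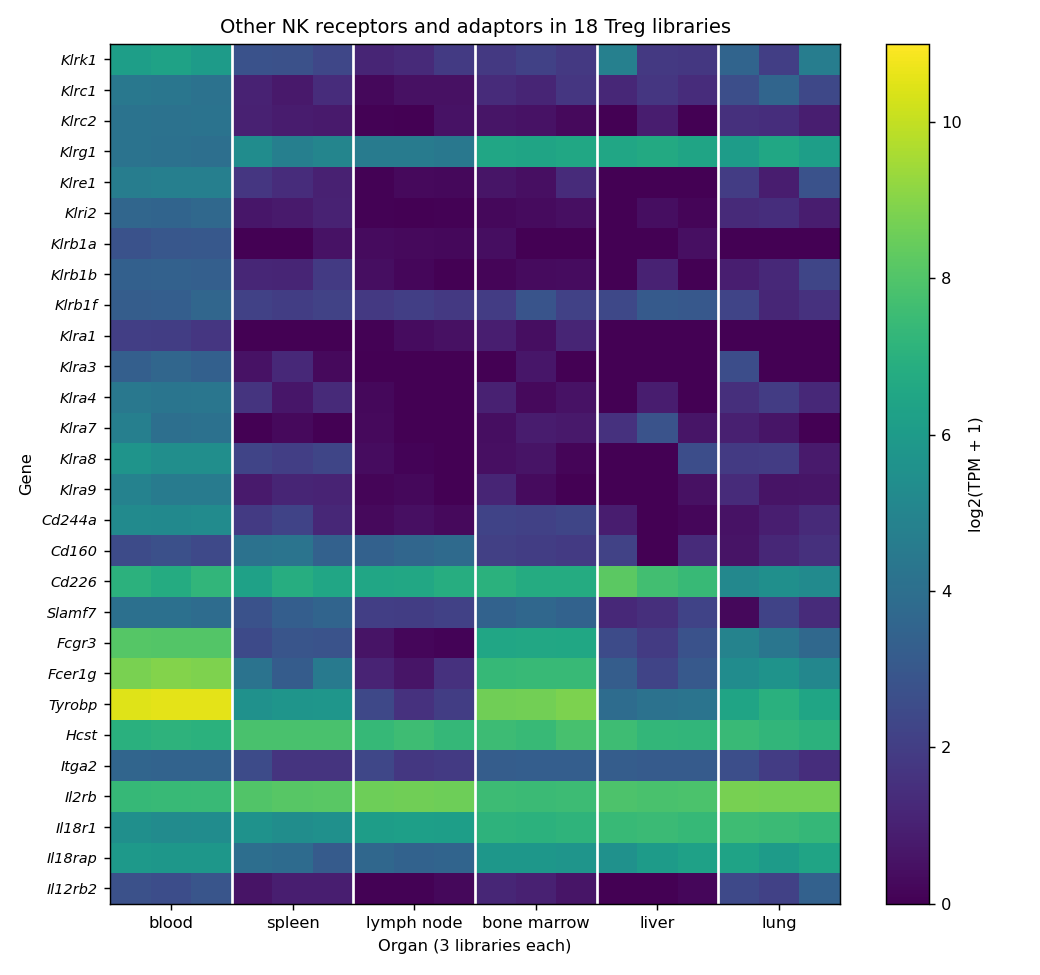
log2(TPM + 1) of 28 other NK receptor and adaptor genes (rows) in the 18 libraries (columns, 3 per organ), on a colour scale from 0 to 11. Most rows are brightest in the blood columns, and Klrg1 and Il18r1 are dimmer there than in liver, lung and bone marrow.

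Transcription factor genes of the NK and cytotoxic program were mixed. Of 10, 4 were higher and 2 lower in blood against spleen, 5 and 4 against lymph node, 3 and 4 against bone marrow, 2 and 8 against liver, and 3 and 7 against lung, with medians of 0.39, 0.53, -0.20, -1.04 and -1.35. For this list too, the shares and medians over all tested genes are those given with the granule genes. Zeb2, a factor of terminal effector cells that myeloid cells also express, was at 62.2 TPM in blood against 1.04 in lymph node (4.97, adjusted p = 3e-10) and 14.5 in bone marrow (2.03). Tbx21, which encodes T-bet, the T-box relative of Eomes, was at 10.6 TPM in blood and 2.96 in lymph node (1.57, adjusted p = 0.000379). Tox was lower in blood than in spleen (15.4 against 43.1 TPM, -1.43), and Bhlhe40 was lower than in lung (29.1 against 404 TPM, -3.75). Irf8 was at 87.5 TPM in blood against 17.3 in liver (2.30, adjusted p = 4.74e-09) and 53.4 in bone marrow (0.70). Like Eomes, Zeb2 and Irf8 were higher in blood in all 5 comparisons, and the rest of this list was not. The difference between Eomes and the list was not tested.

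Markers of other cell types were measured beside these genes. Of 12 NK markers outside the group (8 of them also among the receptors above), 11 had all blood libraries above all 15 others. Of tested genes, 10.1% did so. The 12 markers summed to 2155 to 2290 TPM in blood, 584 to 651 in bone marrow and 232 to 268 in lung. They summed to 108 to 119 in spleen, 53.7 to 74.7 in liver and 45.8 to 49.1 in lymph node. Txk was the marker that did not follow, at 35.4 TPM in blood, 39.8 in lymph node and 79.6 in lung, where it was called higher than in blood. Tyrobp and Fcer1g, which myeloid cells also express, made up most of the sum in blood (1474 and 464 TPM) and in bone marrow (414.7 and 169). Without these 3, left out after the values were seen, the remaining 9 summed to 241 to 254 TPM in blood, 9.38 to 14.6 in bone marrow and at most 40.1 in any other library. Cma1 was at 0 in all lymph node libraries, and Klre1, S1pr5 and Cma1 in all liver libraries. Like Gzma, Prf1, Klrb1c, Klrd1, Ncr1 and Eomes, 11 of the 12 NK markers were highest in blood. This likeness concerns blood against the rest, and the order of the other organs was not compared. The part of NK cells in these results was not tested.

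The 2 CD8 T cell markers (Cd8a and Cd8b1) summed to 31.4 to 34.0 TPM in blood, within the spleen range (31.03 to 40.8) and below lymph node (45.9 to 48.9), and to at most 13.2 in the other organs. The 6 gamma-delta T cell markers summed to 36.9 to 40.5 TPM in blood and at most 31.04 elsewhere. The 10 myeloid markers summed to 24459.9 to 25377 TPM in blood, 37620.4 to 37829 in bone marrow and at most 1564 in the other organs. S100a8 and S100a9 were the largest terms of the bone marrow sum (means of 12865 and 20702 TPM, against 7184 and 9048 in blood). Of the 10, 4 were higher and 4 lower in blood than in bone marrow, beside 13% and 18.8% of tested genes. In 5 (Lyz2, Csf1r, Itgam, Cd14 and Csf3r) all blood libraries lay above all 15 others, as in 10.1% of tested genes. The 5 platelet markers were at 2073 to 2113 TPM in blood and at most 80.2 elsewhere. The 4 B cell markers summed to 490 to 505 TPM in blood and 41.0 to 472 elsewhere, the 6 mast cell and basophil markers to 24.2 to 38.1 in blood and 164 to 179.6 in bone marrow, and the 4 plasmacytoid dendritic cell markers to 118 to 126 in blood and 62.7 to 159 elsewhere. The part of these cells in the levels of the 9 genes was not tested.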

How the data were processed

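Poly(A) RNA of sorted Treg cells was measured in 18 libraries, 3 from each of 6 organs, grouped by the labels. The authors deposited TPM values for 55487 genes per library, made with STAR and RSEM on mm10, per the submitters' processing notes; versions, annotation and use of strand are not given in the sources used here. TPM is a share of a library's RNA, so abundant RNA lowers all other genes. Organ, cell preparation and any batch cannot be told apart.

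Symbols came from GENCODE M21 (55141 of 55487 matched). No 2 tables were identical. The worth of 1 read was estimated from the spacing of low TPM values and covers counting error only. limma 3.58.1 (R 4.3.3) was fitted to log2(TPM + 1) of all 18 libraries with a mean per organ and no covariate (eBayes, trend and robust), for the 16694 genes whose mean reached 1 TPM in 1 or more organs. All 9 members passed, Gzmk through lung alone. P-values were adjusted by Benjamini-Hochberg over these genes in each comparison and called under 0.05. The script was tested on simulated data. Other steps used Python 3.11.15, numpy 2.4.6, pandas 2.3.3, scipy 1.17.1 and matplotlib 3.10.9.

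The 9 members and all lists were chosen with earlier results of these data known. From the other lists, at most 3 called genes per direction and comparison could be named, those that changed most, if the higher organ reached 5 TPM on average. The 3 most correlated genes were named for each member, among genes averaging 5 TPM or more in some organ, leaving out predicted, clone-named and antigen receptor genes. For Klrd1 and Prf1, 1 of the 3 is not reported here. Alternatives were other pseudocounts (0.1 and 5), filters, scalings, library weights, a replicate block, the pair of organs alone, adjustment over all 15 organ pairs, and leaving out each library. Those for the other lists were added after seeing the data.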

Additional observations from a re-analysis of the deposited data

How the results depend on the processing

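The 7 counts of members called (among the 6 organs, in the 5 blood comparisons and over the 10 other pairs) stayed within 1.5 times their values under every alternative run. For counts close to all 9 members the upper limit cannot be reached, so this says little. With single libraries left out the counts were 8 to 9 among the organs, 6 to 8 against bone marrow and 7 to 8 against liver. Against spleen, lymph node and lung they stayed at 8, and over the 10 other pairs they ranged from 38 to 55. Of the 44 calls over the other pairs, 32 held whichever library was left out and 12 did not. Scaling to T cell genes turned Gzmb, blood minus liver, to 0.029, Klrg1, blood minus lymph node, to 0.616, and Nkg7, bone marrow minus liver, to 0.331. Gzmk, blood minus liver, which was near 0, became 0.756 with a pseudocount of 0.1, 0.255 with T cell scaling and 0.005 with array weights. Without lung replicate 1, Gzmk fell under the limit for testing and has no value. With each other library left out it ranged from -0.306 to 0.536, and Gzmk blood minus bone marrow from -0.07 to 0.348. With each of the 18 left out, Gzma bone marrow minus liver ranged from -0.297 to 0.541 and Nkg7 bone marrow minus liver from -0.413 to 0.076. None of these 4 was called with all libraries.

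Of the other lists, T cell scaling moved the granule genes to 13 higher and 0 lower in blood against lymph node, 11 higher and 1 lower against liver, 0 lower against spleen and 2 lower against bone marrow. Median-ratio scaling and removal of abundant RNA classes also gave 2 lower against bone marrow. Under T cell scaling 0 NK receptor genes were lower against spleen and lymph node and 2 against liver. Array weights gave 3 lower against liver, and median-ratio scaling 2 lower against lymph node. Transcription factors became 9 higher and 1 lower against spleen, 8 higher and 1 lower against lymph node, and 4 lower against liver. Leaving out libraries gave 2 to 5 granule genes lower against bone marrow (3 without bone marrow replicate 1, 2 without bone marrow replicate 3 or blood replicate 3) and 2 to 5 receptor genes lower against lymph node (2 without lymph node replicate 2). Over all genes, T cell scaling raised those higher in blood from 3362 to 9116 against spleen, 2745 to 9491 against lymph node and 3887 to 10402 against liver. Those lower fell from 2550 to 481, 3504 to 339 and 2693 to 798, and from 3132 to 1465 against bone marrow. T cell scaling multiplies each library by 1 factor, and the cause of the other changes was not tested.

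With the replicate number as a block, members called were 8 against spleen, lymph node, liver and lung and 7 against bone marrow. The block added Nkg7 against liver (0.465, adjusted p = 0.0398) and, among the organ pairs listed here, removed Klrb1c between spleen and bone marrow (adjusted p = 0.0572). Deviations of same-numbered libraries correlated between -0.034 and 0.03 over 45 pairs, so no pairing by number was seen. This cannot show whether same-numbered libraries shared animals, since a shared source need not leave correlated deviations. Levels under about 1 TPM in liver are limited by depth.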
